A study of Rattus norvegicus with 9 samples.

Results

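Cortex from the ischemic side of BHD-treated model rats, which received Buyang Huanwu Decoction, was compared with control cortex. The aim was to ask what still differed from uninjured tissue on day 7 in treated rats. The study's methods count day 7 from the injury, and the schedule of BHD is not given in the sources used here. No day is given for the control rats. The comparison used 6 of the 9 arrays in the series, chosen by their group labels alone. The study's methods describe male Sprague Dawley rats, 8 weeks old when purchased and thus older at sampling, and there was 1 array per rat. Those methods do not describe the BHD group, so sex, strain and age are carried over to it. The 3 BHD rats had undergone cerebral ischemia-reperfusion injury (CIRI), in which a plug closed the middle cerebral artery for 2 h before blood flow returned, and were then given BHD, a Chinese herbal decoction whose dose is not given in the sources used here. The 3 control rats had the same operation without the plug, and the 3 untreated model rats, killed on day 7, are given only for reference. The labels call the arrays of a group biological replicates.

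N6-methyladenosine (m6A) is a methyl mark that a methyltransferase complex places on adenosines of mRNAs and lncRNAs and that demethylases can remove. Proteins that bind it affect the splicing, export, translation and decay of the marked RNA, and the mark is abundant in brain. On these arrays RNA pulled down by an antibody against m6A (IP) carried Cy5 and the supernatant left behind (Sup) carried Cy3, so that log2(IP/Sup) gives the relative m6A level of a transcript. Here log2(IP+Sup) is called its total signal and stands in for how much of the transcript was present. Both fractions were amplified and their signals normalized, so the amount of RNA itself was not measured. The dyes were not swapped, so ratios of different probes cannot be set against each other, while the same probe can be compared between rats.

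Of the 41186 transcript probes, control arrays had 70.9% to 77% well above background for IP and 58.4% to 68.2% for Sup. BHD arrays had 73.9% to 80.6% for IP and 67.9% to 72.7% for Sup. Spots at saturation numbered 0, and 0.6% to 2.3% of the spots on control arrays and 0.12% to 0.43% on BHD arrays were marked as outliers by the scanner software. Scan times put the 3 control arrays in scan 1, BHD arrays 1 and 2 in scan 2 and BHD array 3 in scan 3. Group and scan can therefore not be told apart within these 6 arrays, and the part of the scan in the results below was not tested. In log2(IP/Sup), BHD 1 correlated with control 1 at 0.972 across probes, above the 0.914 and 0.897 of control 1 with the other controls. In total signal BHD 3 was the array farthest from the controls, at 0.941 to 0.954. The mean correlation in log2(IP/Sup) was 0.927 within the control group, 0.943 within the BHD group and 0.929 between them.

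A probe was called when it differed by at least 1.5-fold with an unadjusted p under 0.05 in limma, the thresholds of the study's methods. Of 31909 tested probes, 329 (1.03%) were called on the relative m6A level. Of these, 215 (0.674% of the tested probes) had a higher and 114 (0.357%) a lower level in the BHD group. For IP signal 957 (3.00%) were called, 626 higher (1.96%) and 331 lower (1.04%). For Sup signal 1516 (4.75%) were called, 859 higher (2.69%) and 657 lower (2.06%). For total signal 1186 (3.72%) were called, 707 higher (2.22%) and 479 lower (1.5%). Among probes with values on all 6 arrays, the groups did not overlap for 11.6% in log2(IP/Sup), 18.7% in IP, 22.8% in Sup and 24.8% in total signal. In this main fit no probe had a Benjamini-Hochberg adjusted p under 0.05 in limma on any of these measures. An unadjusted p under 0.05 in limma was found for 2071, 3016, 4113 and 4171 probes. The smallest adjusted p was 0.334 for log2(IP/Sup), 0.167 for IP, 0.0784 for Sup and 0.199 for total signal. In the authors' deposited table, limma adjusted p was under 0.05 for 0 probes in log2(IP/Sup), 18 in IP, 306 in Sup and 197 in total signal. All calls below are calls at the unadjusted threshold.

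Among named mRNAs, Slc28a2 and Nat1 were called higher and Map2 lower in total signal in BHD cortex, and Slc28a2, Fgf2 and Trim2 were called higher in the Sup fraction. For relative m6A level 0 of the 27 named transcripts were called. LOC108352165 among them carries a non-coding RNA accession and is counted with the named mRNAs throughout. The 27 came from 50 probes that carry an accession in place of an array name and are printed in 10 spots each, 30 of which matched a rat gene symbol. The probes of Gdnf and Lhcgr, which were above background on 0 of the 6 arrays, and of Cyp2e1, above it on 2, were not tested. Across the 27, differences in log2(IP/Sup) lay between −0.49 and 0.24 with a median of −0.09, beside −0.004 over all tested probes. Their total signal changed by −0.67 to 1.21 with a median of 0.16, beside −0.014 over all tested probes, and 22 of 27 lay above 0. For total signal 3 of the 27 were called, where 3.72% of all probes were, and for Sup signal 3 of the 27, all higher, where 2.69% were. The groups did not overlap for 6 of the 27 in total signal (24.8% of all probes), for 8 in Sup signal (22.8%) and for 5 in log2(IP/Sup) (11.6%).

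**Figure D1:**
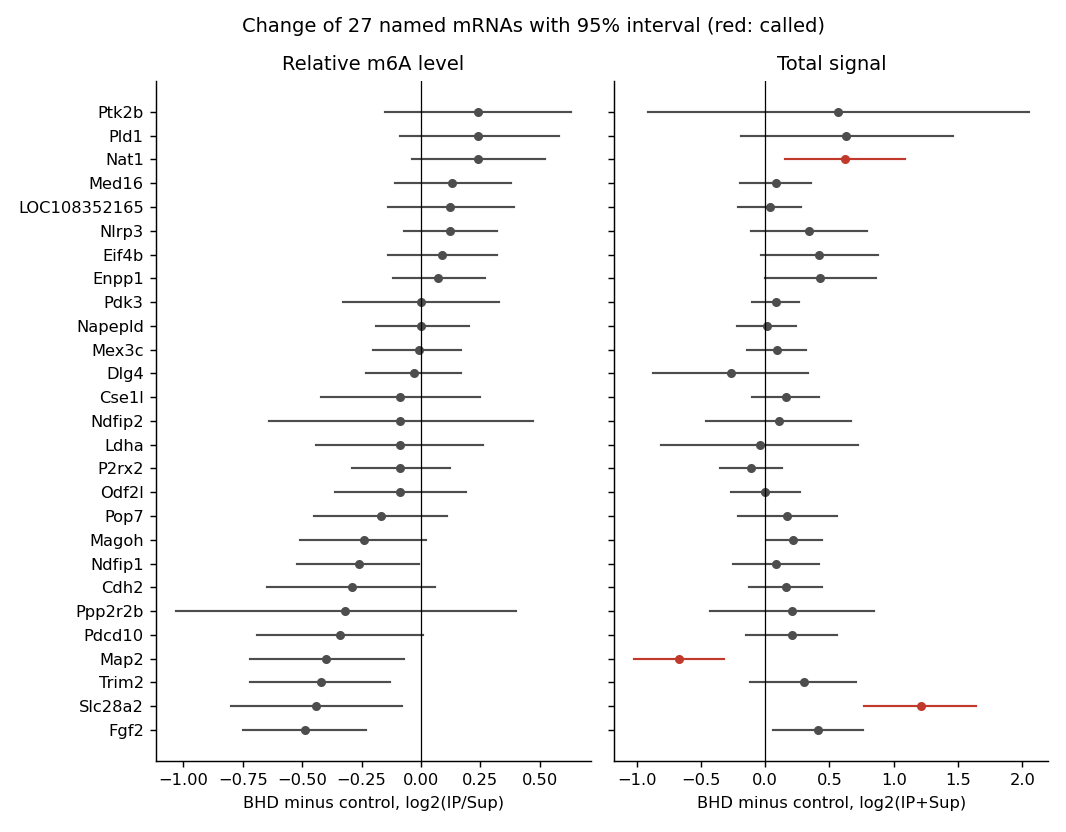
Differences between BHD and control arrays (x axis, log2 units) for 27 named transcripts (y axis), left in log2(IP/Sup) and right in log2(IP+Sup). All are mRNAs except LOC108352165, which has a non-coding RNA accession. Points are fitted differences, lines are 95% intervals from limma, and red marks a call, which Slc28a2, Nat1 and Map2 have on the right and no mRNA has on the left.

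Among neuronal and synaptic genes, Map2, which encodes a microtubule-associated protein of dendrites and serves as a neuron marker, had a total signal of 12.32, 12.27 and 12 (log2) in the control rats. In the BHD rats it was 11.68, 11.62 and 11.28, and in the untreated model rats 11.61, 12.03 and 11.89. Every BHD rat lay below every control rat and 2 of the 3 lay within the model range. Map2 total signal was 1.59-fold lower, a difference of −0.67 (standard error 0.14, limma adjusted p = 0.28). Its direction was the same under every scaling tried, but without BHD 3 it was −0.54 and was no longer called. In bulk cortex, fewer neurons and less Map2 RNA per neuron cannot be told apart.

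For Map2 the m6A-bound fraction was called and the supernatant was not. Map2 IP signal was 12, 12.03 and 11.72 in control and 11.34, 11.29 and 10.89 in BHD rats, a called difference of −0.74 (standard error 0.15, limma adjusted p = 0.451). The Sup signal was lower too, with 10.01, 9.57 and 9.47 in control and 9.43, 9.37 and 9.21 in BHD rats. These values did not overlap, but the difference of −0.35 was not called. The relative m6A level of Map2 was 1.99, 2.46 and 2.25 in control and 1.91, 1.92 and 1.69 in BHD rats, so the groups did not overlap, but the 1.32-fold difference of −0.40 (standard error 0.14, limma adjusted p = 0.756) did not reach 1.5-fold. Untreated model rats had 2.18, 2.25 and 1.86.

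The other neuronal genes on the list were not called on any measure. Total signal differed by −0.27 (standard error 0.24) for Dlg4, the postsynaptic scaffold PSD-95, by 0.16 (standard error 0.12) for Cdh2, which encodes N-cadherin, and by 0.21 (standard error 0.26) for Ppp2r2b, a regulatory subunit of protein phosphatase 2A. The log2(IP/Sup) of Ppp2r2b differed by −0.32 with a 95% interval from −1.03 to 0.40, and that of Cdh2 by −0.29 with an interval from −0.65 to 0.06, and both intervals reach past a 1.5-fold lower level. For Dlg4 the interval was −0.23 to 0.17. Of the 15 neuronal and synaptic genes listed, these and Map2, 4 in all, could be matched. For total signal 1 of the 4, Map2, was called, where 3.72% of all tested probes were. Among the cell type markers listed, Map2 was the one that matched, and it was well above background on all 6 arrays. Markers of astrocytes, microglia, oligodendrocytes, endothelium and blood were not analysed here. The tissue is therefore known from the sample labels, and Map2 alone cannot check it.

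Slc28a2 encodes a concentrative nucleoside transporter that takes up purine nucleosides. Its total signal was 8.68, 8.46 and 8.89 in control, 9.17, 9.23 and 9.03 in untreated model and 10.01, 9.56 and 10.08 in BHD rats. All 3 BHD rats lay above all 3 control rats, and the lowest BHD value lay above the highest model value. The difference from control was 1.21 (standard error 0.18, limma adjusted p = 0.231), or 2.31-fold, and it was called with each array left out, from 1.1 to 1.37. Both fractions were called higher, the IP signal by 1.04 and the Sup signal by 1.48. Its log2(IP/Sup) was 1.03, 0.68 and 0.98 in control and 0.28, 0.73 and 0.37 in BHD rats, where BHD 2 lay within the control range, and they differed by −0.44 (standard error 0.15, limma adjusted p = 0.756), below the fold threshold.

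Nat1 encodes an arylamine N-acetyltransferase. Total signal of Nat1 was 7.64, 7.74 and 7.70 in control, 8.12, 8.01 and 8.10 in untreated model and 8.14, 8.04 and 8.75 in BHD rats. The groups did not overlap, and BHD 3 stood above the other 2 BHD rats. Nat1 differed by 0.62 (standard error 0.19, limma adjusted p = 0.343), just past the 1.5-fold threshold, and the call was lost in 8 of 19 other settings, at 0.40 without BHD 3, 0.59 without control 1, 0.46 with scan as a fixed block over 9 arrays and 0.58 with the channels scaled to a common median. The Sup signal of Nat1 was well above background on 3 of the 6 arrays, so its log2(IP/Sup), which differed by 0.24, rests in part on background.

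**Figure D2:**
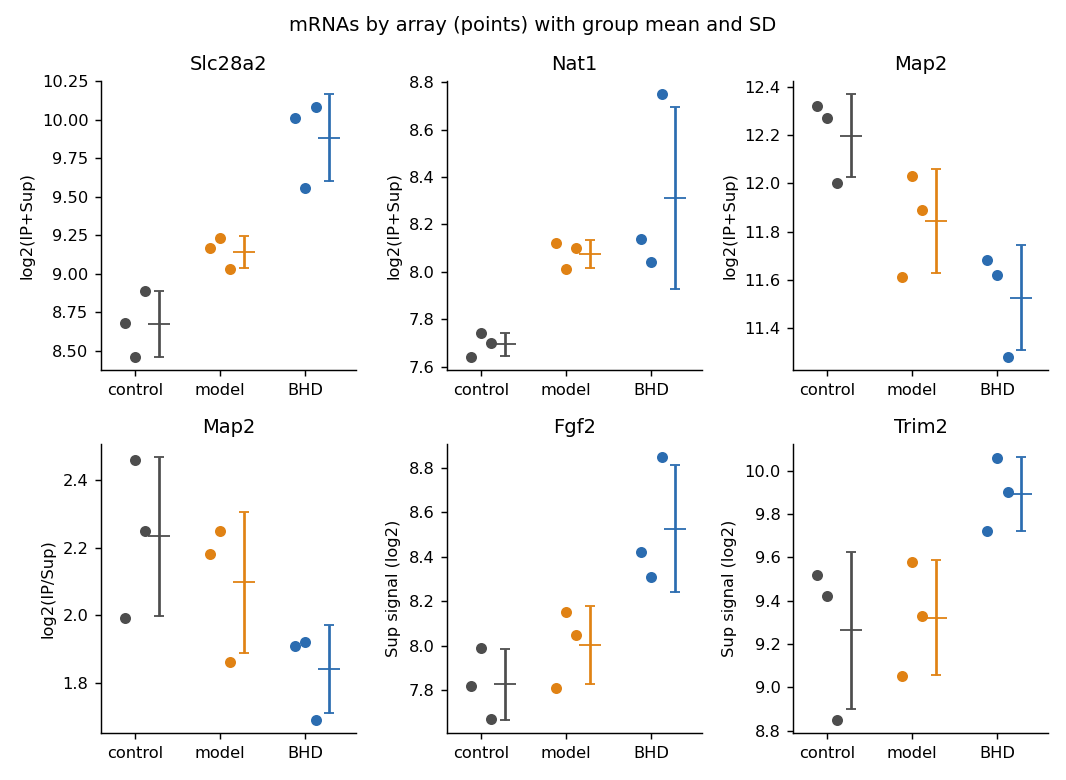
Values per array of the mRNAs called on at least 1 measure, as log2 signal or log2 ratio (y axis, own scale per panel) by group (x axis). Points are rats and bars are the group mean and SD. BHD values lay above all control values in total signal of Slc28a2 and Nat1 and in Sup signal of Fgf2 and Trim2, and below them in both Map2 panels.

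For Fgf2 and Trim2 the Sup signal was called higher in BHD cortex, while neither the IP signal nor the ratio of the fractions was called. Fgf2 encodes basic fibroblast growth factor, which acts on neurons, glia and vessels. The Sup signal of Fgf2 was 7.82, 7.99 and 7.67 in control, 7.81, 8.15 and 8.05 in untreated model and 8.42, 8.31 and 8.85 in BHD rats, a difference of 0.70 (standard error 0.16, limma adjusted p = 0.322). The IP signal went the same way without overlap, with 8.56, 8.62 and 8.64 in control and 8.65, 8.69 and 9.12 in BHD rats. It differed by 0.21 (standard error 0.14), which was not called. The relative m6A level of Fgf2 was 0.75, 0.63 and 0.97 in control, 0.42, 0.24 and 0.39 in untreated model and 0.22, 0.38 and 0.28 in BHD rats. All 3 BHD values lay below the lowest control value, and the 1.40-fold difference of −0.49 (standard error 0.11, limma adjusted p = 0.753) stayed below the threshold. Without BHD 3 the Sup difference was 0.54 and not called, and with scan as a fixed block over 9 arrays it was 0.25. Fgf2 was the 1 of 6 listed growth factors that could be matched.

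Trim2 encodes a ubiquitin ligase of neurons. Its Sup signal was 9.52, 9.42 and 8.85 in control and 9.72, 10.06 and 9.90 in BHD rats, a called difference of 0.63 (standard error 0.20, limma adjusted p = 0.356), with model values of 9.05, 9.58 and 9.33. The call of Trim2 was lost without control 3, at 0.43, and in 8 of 19 other settings in all. Its log2(IP/Sup) was 1.93, 2.30 and 2.22 in control and 1.84, 1.58 and 1.77 in BHD rats. These groups did not overlap, with a difference of −0.42 (standard error 0.12, limma adjusted p = 0.754).

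The remaining named mRNAs were not called on any measure. Ndfip1, an adaptor of Nedd4 family ubiquitin ligases, had non-overlapping log2(IP/Sup), with −1.06, −0.93 and −0.82 in control and −1.10, −1.36 and −1.12 in BHD rats, a difference of −0.26 (standard error 0.11). The values of its relative Ndfip2 overlapped, with a difference of −0.09 (standard error 0.23). Nlrp3, an inflammasome sensor, had non-overlapping values too, but its IP signal was well above background on 3 of 6 arrays and its Sup signal on 1. Of the 8 RNA-binding and translation genes listed, 3 were matched. Magoh, a core protein of the exon junction complex, differed by 0.22 (standard error 0.09) in total signal without overlap. Eif4b, a translation initiation factor, differed by 0.42 (standard error 0.19) and Mex3c, an RNA-binding ubiquitin ligase, by 0.09 (standard error 0.09), both with overlap. Ldha, lactate dehydrogenase A, was the 1 of 7 glycolysis and hypoxia genes that matched, and its total signal differed by −0.04 with a 95% interval from −0.81 to 0.72, with control 3 well below the other controls, at 10.86 against 11.96 and 11.98. Ptk2b, a calcium-responsive tyrosine kinase, had its lowest total signal on the same array, at 8.52 against 10.45 and 10.74 on the other controls. None of the 9 listed m6A writers, erasers and readers could be matched to a probe.

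Probes whose names begin with uc. stand for lncRNAs transcribed from ultraconserved genomic elements, with the strand given by + or −, and 408 of 959 were tested. In BHD cortex, uc.440- and uc.354+ were called lower in total signal, and uc.432+ was called lower in total signal and higher in relative m6A level. In relative m6A level 2 of the 408 were called (0.49%, against 1.03% of all probes), both higher in BHD rats. An unadjusted p under 0.05 in limma was found for 17 (4.17%, against 6.49% of all probes). For total signal 8 were called, 7 lower and 1 higher (1.96%, against 3.72%). Over the 408 the median change was 0.009 in log2(IP/Sup) and −0.017 in total signal. The sequences of the lncRNAs themselves were not used here. The study's own MeRIP-PCR primers for uc.440- and uc.77- identify the transcripts at issue and are given 5′ to 3′ in lower case, with no part marked:
uc.440- forward: atgagttacaaccttcacgcag
uc.440- reverse: accagcatttaatttcagccc
uc.77- forward: ttaaaggaagtctgactgctgc
uc.77- reverse: gttctcgccacactctgtttct

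The lncRNA uc.440- had a total signal of 9.15 and 9.47 in control rats 1 and 3, while the spot of control 2 was marked as an outlier and left out. It was 10.20, 10.34 and 10.68 in untreated model rats and 8.38, 8.16 and 7.77 in BHD rats. The BHD values lay below the control values, and the model values lay above them. The difference between BHD and control was −1.21 (standard error 0.21, limma adjusted p = 0.276), or 2.32-fold lower, and with the marked spot kept it was −1.20. Without each array in turn, where a fit could be made, it ran from −1.35 to −1.04. IP and Sup signals were both called lower, by −1.34 and −1.07. Both fractions were lower, and log2(IP/Sup) was 0.38 and 0.07 in control and −0.17, 0.04 and −0.02 in BHD rats, a difference of −0.28 (standard error 0.13, limma adjusted p = 0.759) that was not called. With scan as a fixed block over 9 arrays it was −0.89 (limma adjusted p = 0.592) and was called.

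For uc.77-, log2(IP/Sup) was 1.88, 1.43 and 1.71 in control, 1.41, 0.52 and 0.92 in untreated model and 1.71, 1.28 and 1.29 in BHD rats. BHD 1 lay within the control range and the other 2 below it. The difference between BHD and control was −0.25 with a 95% interval from −0.63 to 0.14 and was not called. In the authors' deposited table it was −0.90 (limma adjusted p = 0.36) and was called. With scan as a fixed block over 9 arrays it was 0.51, the opposite direction, and not called. Its total signal differed by 0.23 (standard error 0.14), with 9.04, 8.84 and 9.06 in control and 9.09, 9.06 and 9.49 in BHD rats, and with that block by −0.12.

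The lncRNA uc.354+ was called on IP, Sup and total signal. Total signal was 10.09, 10.17 and 9.91 in control, 9.61, 9.87 and 9.81 in untreated model and 9.24, 9.20 and 9.11 in BHD rats. The values of the groups did not overlap, the BHD rats lay within 0.13 of each other, and the model rats lay between the other groups. The BHD rats differed from control by −0.87 (standard error 0.09, limma adjusted p = 0.226), a value that ran from −0.95 to −0.82 without each array in turn. With scan as a random block it was −0.88, and with scan as a fixed block over 9 arrays −1.07. Its log2(IP/Sup) differed by −0.20 (standard error 0.11), which was not called.

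The lncRNA uc.432+ had a log2(IP/Sup) of −0.39, −1.19 and −0.80 in control, −0.74, −0.61 and −0.70 in untreated model and −0.29, 0.02 and 0.19 in BHD rats. All BHD values lay above all control values, with BHD 1 and control 1 separated by 0.10. The difference was 0.76 (standard error 0.22, limma adjusted p = 0.754). It went with a Sup signal lower by −1.39 (standard error 0.36) and an IP signal lower by −0.62 (standard error 0.22), both called. The ratio was thus higher with less signal in both fractions. Total signal was 9.55, 10 and 10.01 in control and 9.26, 8.89 and 8.22 in BHD rats, with a difference of −1.06 (standard error 0.29, limma adjusted p = 0.316). Without control 2 the ratio difference was 0.56 and no longer called, and the same held at 0.57 in the deposited table. With scan as a fixed block over 9 arrays both calls of uc.432+ were lost, at 0.57 for the ratio and −0.73 for total signal.

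The log2(IP/Sup) of uc.448- was −0.93, −1.37 and −1.44 in control, −1.31, −1.06 and −0.92 in untreated model and −0.91, −0.56 and −0.42 in BHD rats, a called difference of 0.62 (standard error 0.18, limma adjusted p = 0.754). BHD 1 and control 1 were separated by 0.02. Of 6 settings that each left out 1 array, 2 kept the call. It was also lost at 0.20 with scan as a fixed block over 9 arrays, at 0.31 in the deposited table and at 0.55 with processed signals. The total signal of uc.448- was 11.38, 10.72 and 8.93 in the BHD rats, where BHD 3 stood far below the others, against 11.33, 11.73 and 11.87 in control.

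**Figure D3:**
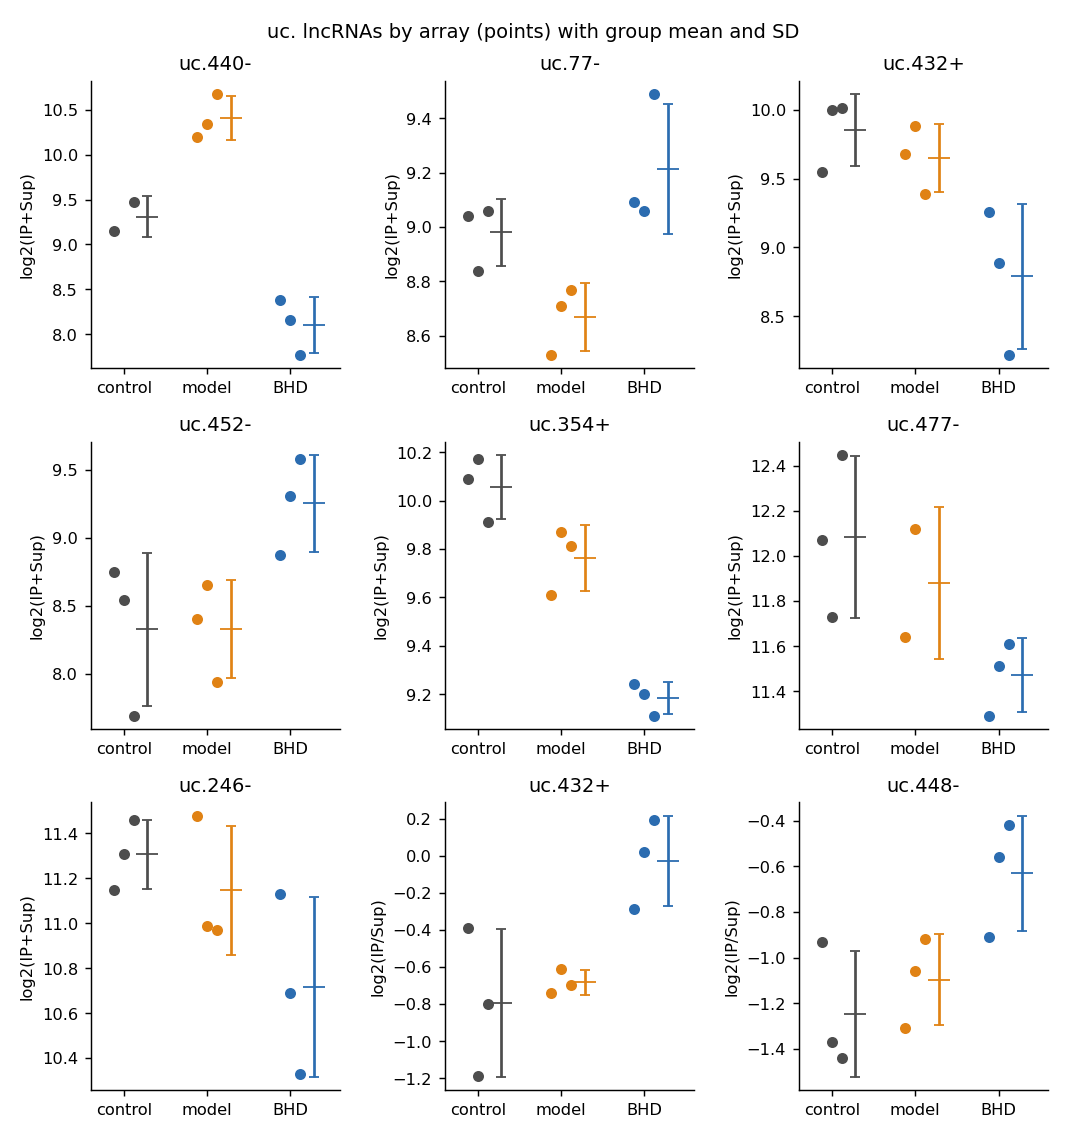
Values per array of the uc. lncRNAs described, as log2 total signal or log2 ratio (y axis, own scale per panel) by group (x axis), with uc.440- missing for control 2 and uc.477- for model 3 (panels 1 to 7 total signal, panels 8 and 9 ratio). Points are rats and bars the group mean and SD. BHD values of uc.440- and uc.354+ lay below all control values, with those of the untreated model rats above control for uc.440-.

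The one uc. lncRNA called higher in total signal was uc.452-, with 8.75, 8.54 and 7.69 in control and 8.87, 9.31 and 9.58 in BHD rats. It differed by 0.93 (standard error 0.32, limma adjusted p = 0.358), and by 0.61 without control 3. The call of uc.452- was lost in 7 of 20 other settings, with 0.97 and an unadjusted p of 0.116 in limma with scan as a random block, 0.87 with scan as a fixed block over 9 arrays, 0.93 and an adjusted p of 0.45 in limma with the replicate number as a block, 0.90 without BHD 2 and 0.76 without BHD 3. The lncRNA uc.477- was called lower by −0.62 (standard error 0.20), with 12.07, 11.73 and 12.45 in control and 11.29, 11.51 and 11.61 in BHD rats, and lost the call in 7 of 20 other settings. The lncRNA uc.246- was called lower by −0.59 (standard error 0.21), with 11.15, 11.31 and 11.46 in control and 11.13, 10.69 and 10.33 in BHD rats. With scan as a fixed block over 9 arrays it differed by 0.11, the opposite direction. In 11 of 20 other settings the call of uc.246- was lost, among them the replicate number as a block (limma unadjusted p = 0.0762). The groups did not overlap for these 3. They did overlap for uc.371- and uc.477+, the other called uc. lncRNAs, at −0.92 and −0.95.

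Both strands were tested for 118 of 290 uc. regions. Of the 8 uc. lncRNAs called for total signal, 5 had the other strand tested, and 1 region, uc.477, was called on both. The opposite strands of the other 3 differed by 0.01 for uc.246+, by −0.05 for uc.371+ and by 0.12 for uc.452+, each not called, so in these regions the called strand differed while its partner gave a value near 0. The difference between the strands was not tested.

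For the called ratios of all probe classes, the fractions behind them were compared next. Of the 215 probes with a higher ratio in BHD rats, 107 had a called lower Sup signal, 45 a called higher IP signal, 21 were called lower in both fractions and 63 in neither. Their median difference was −0.02 in IP and −0.84 in Sup signal. Of the 114 probes with a lower ratio, 37 had a called higher Sup signal, 19 a called lower IP signal, and 58 were called in neither, with medians of −0.31 in IP and 0.39 in Sup signal. Ratio and fractions come from the same spots, so these counts describe how the ratio calls are made up. The groups did not overlap for 142 of the 215 and 74 of the 114, beside 11.6% of all probes with values on all 6 arrays. These probes were picked by the size and p of the same ratio, so a larger share without overlap is built in.

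**Figure D4:**
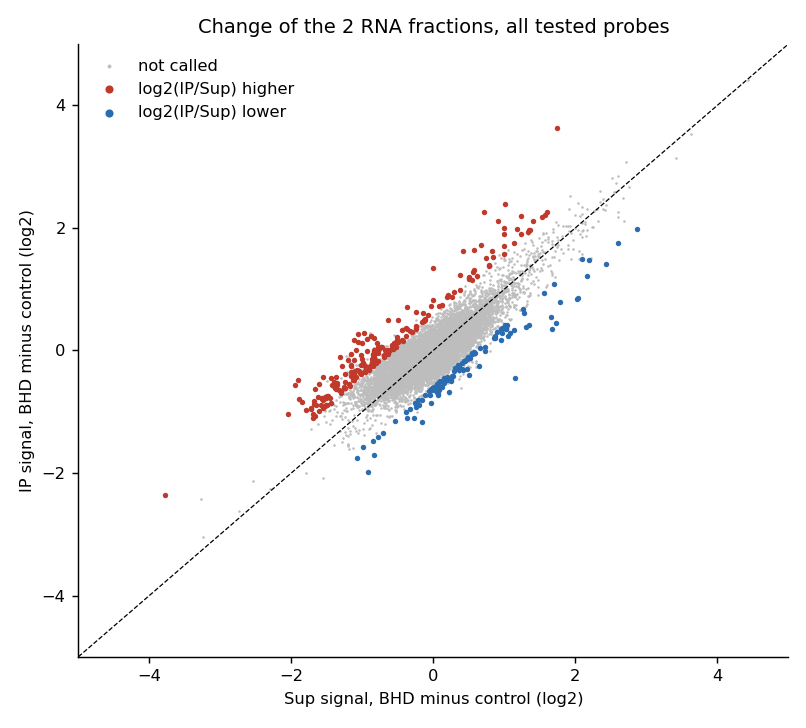
Difference between BHD and control in IP signal (y axis, log2) against that in Sup signal (x axis, log2) for 31909 tested probes. Red marks the 215 probes called higher and blue the 114 called lower in log2(IP/Sup), grey all others, and the dashed line equal change in both fractions. Many red points lie left of 0 on the x axis near an IP change of 0.

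For probes called in total signal, the fractions were counted as well. Of 707 probes called higher in total signal, 463 were called higher in both IP and Sup, and of 479 called lower, 202 were called lower in both. Of the 707, 65 were also called for log2(IP/Sup), and of the 479, 84, where 1.03% of all tested probes were. Total signal, fractions and ratio come from the same spots. Shared calls are therefore partly built in, and these counts only describe how the total signal calls are made up. The balance of directions depends on the scaling and on the fit. In total signal 59.6% of the calls were higher in BHD rats, against 36.4% when spots marked as outliers were left out before the quantile step rather than after it, 50.2% in the authors' deposited table, 48.6% with all 9 arrays in the fit and 71.1% with the replicate number as a block. For IP signal 65.4% were higher, against 40.3% and 31.1%, and for Sup signal 56.7%, against 35.5% and 71.4%, with 47.4% for all 9 arrays and 69.3% for the replicate block. In log2(IP/Sup) 65.3% were higher, against 6.65% in the deposited table, where the median over all probes was shifted by −0.319. In the main fit that median was −0.004, but the loess step centres log2(IP/Sup) on each array. A change in m6A shared by all probes would therefore not show in this measure. Without normalization within arrays the median was −0.069.

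The calls were also counted by array class. For log2(IP/Sup) the share called was 0.878% for probes named ASRN6AP1A, 1.08% for ASRN6AP1B, 1.13% for ASRN6SM and 0.81% for ASRNV, near the 1.03% of all probes. Among 2619 probes named ASRN6AP1A, 22 had a called higher and 1 a called lower log2(IP/Sup), and among 1947 named ASRN6SM, 21 were called higher and 1 lower. The 23682 ASRN6AP1B probes gave 153 higher and 103 lower and the 3208 ASRNV probes 17 and 9. In total signal, ASRN6AP1A gave 10 higher and 43 lower calls ASRN6SM 3 and 17, ASRNV 22 and 44, and ASRN6AP1B 669 and 367. The shares called for total signal were 2.02%, 1.03%, 2.06% and 4.37%, beside 3.72% of all probes. The difference between classes was not tested, and the sources used here do not say what the class names stand for.

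The unnamed probe with the highest called ratio difference among those with signal in both fractions on all 6 arrays, ASRN6AP1B10007793611, had a log2(IP/Sup) of 0.76, 0.58 and 0.82 in control, 1.55, 0.97 and 1.82 in untreated model and 2.52, 1.57 and 2.73 in BHD rats. It differed by 1.55 (standard error 0.29, limma adjusted p = 0.689), with an IP signal higher by 2.26, and was called with each array left out. The next, ASRN6AP1B10007893911, differed by 1.42 (standard error 0.56), with both fractions lower, Sup by −3.79 and IP by −2.36. Its BHD values of −3.01, −0.77 and −2.80 were far apart, and without BHD 2 the difference was 0.71, still called. It was 0.39 with processed signals and 0.16 in the deposited table, and 9 of 19 other settings lost the call. In the other direction, ASRN6AP1B10176459111 differed by −1.60 (standard error 0.50), with Sup signals of 9.36, 9.30 and 9.38 in control and 10.22, 10.44 and 10.81 in BHD rats and an IP signal that was not called. ASRN6AP1B10006230611 differed by −1.28 (standard error 0.25), with a Sup signal higher by 1.73 and BHD 2 nearest to the controls.

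The number of calls turned on single rats. For log2(IP/Sup) it was 890 without control 1 and 861 without BHD 1, against 329, and 1349 without both, a setting chosen after these arrays were seen to be alike. It was 183 without control 3 and 183 without BHD 3. For total signal it was 2123 without BHD 1, with 794 higher and 1329 lower, and 772 without BHD 3, against 1186. With 3 rats a side, an exact two-sided permutation test of a single value cannot give a p below 0.1, which is what a pair of groups without overlap reaches.

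**Figure D5:**
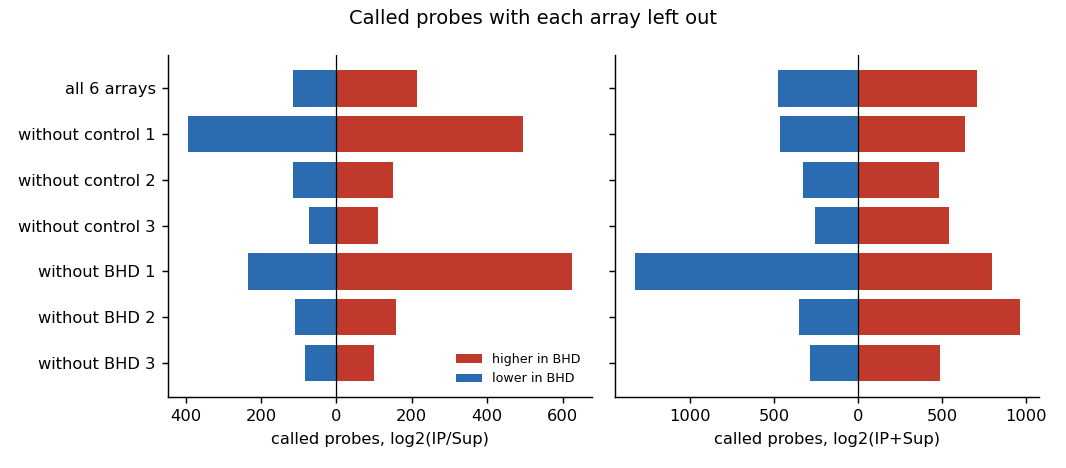
Number of called probes (x axis) with all 6 arrays and with each array left out (y axis), for log2(IP/Sup) on the left and log2(IP+Sup) on the right. Bars to the right count probes higher and bars to the left probes lower in BHD rats. The ratio calls were most numerous without control 1 (890) and BHD 1 (861).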

How the data were processed

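Per the labels, IP RNA was labelled with Cy5 and Sup RNA with Cy3. The authors deposited Agilent Feature Extraction 11.0.1.1 output, of which the median intensity per spot and local background, not normalized, and the processed intensity, corrected by that software, were used, together with a deposited table of log2 signals per channel, which the methods say was normalized in GeneSpring. Median intensities were corrected with normexp (offset 50) and loess within arrays, with control spots and spots marked as outliers at weight 0. Average signals were quantile normalized over 9 arrays (Aquantile). Marked spots were then left out and spots of a probe averaged. Leaving them out before that step was the first version. It was changed after values were seen because 44.8% to 55.0% of those on control arrays lay in the brightest 10% of spots. On BHD arrays 1, 2 and 3 this share was 46.4%, 52.2% and 18%. Tested probes stood well above background in IP or Sup on 3 or more of the 6 arrays and had values on 2 or more arrays per group. They were fitted with limma 3.58.1 in R 4.3.3, without covariates. Figures used Python 3.11.15 and matplotlib 3.10.9. The fit was tested on simulated data. Symbols came from accessions in the GRCr8 gene table, used for names only. Named were the genes the study names, where a probe matched, every matched mRNA, up to 8 uc. probes per direction and 2 other probes per direction, called, without overlap and above background on all 6 arrays, by size. The members and lists were chosen with earlier results of these data known. Deviations of same-numbered control and BHD arrays from their group means correlated in log2(IP/Sup) at 0.384, 0.319 and 0.158. In total signal these correlations were near 0, at −0.04, 0.0781 and −0.0232. The number was treated as a possible pairing for all measures, though the labels do not say what it shares. Columns left unused numbered 0. Alternatives covered the signals, scaling, filter, marked spots, test, scan and replicate blocks and each array left out.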

Additional observations from a re-analysis of the deposited data

How the results depend on the processing

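Order of values is log2(IP/Sup), IP, Sup and total signal, with uc. lncRNAs for log2(IP/Sup) last, against 329, 957, 1516, 1186 and 2. The scanner software's processed signals gave 1491, 2762, 3938, 3318 and 30. A plain equal-variance test gave 146, 488, 709 and 601. With the main fit, limma adjusted p gave 0 throughout, where fewer probes pass by construction. Scan as a random block gave 909 for Sup and 746 for total signal. Scan as a fixed block over 9 arrays, which rests on model 1 beside the controls and on BHD 1 and 2 beside model 2 and 3, gave 1602, 1732 and 716 for the first 3 and 21 uc. lncRNAs. The deposited table gave 3685, 3174, 3112, 2897 and 63. Limma adjusted p was under 0.05 there for 0, 18, 306 and 197 probes, and without BHD 2 for 0, 7, 5 and 4. No other setting had more than 2 such probes on any measure. Without both control 1 and BHD 1, chosen after seeing the data, log2(IP/Sup) gave 1349, Sup 2564 and uc. 13. Leaving out each array gave 183 to 890, 679 to 1438, 869 to 3050, 772 to 2123 and 0 to 11, with Sup at 3050 without BHD 1, 1008 without control 3 and 869 without BHD 3, IP at 1438 without BHD 2, and uc. at 11 without BHD 1 and 0 without control 2. With the replicate block the counts were 354, 965, 1267, 1012 and 3, summed over directions within 1.5 times, but lower calls went from 657 to 389 for Sup and from 479 to 292 for total signal, and this pairing ended the total signal calls of uc.452- and uc.246- and no other call among the 24 named results. Under the fixed scan block uc.77- turned to 0.51 in log2(IP/Sup) and −0.12 in total signal, and uc.246- to 0.11 in total signal. Median centring or no normalization within arrays, channel scaling, no filter, a stricter filter, and marked spots kept moved no count by over 1.5 times. With all 9 arrays in the fit the summed counts stayed within it, but lower calls rose to 991 for Sup and 803 for total signal. Of 457 values of 24 named results, 366 kept direction and side of the threshold, 86 kept direction but lost the call, 2 gained it and 3 turned. Apart from the adjusted p, the cause was not tested. Intensity near background limits Nat1, Nlrp3 and P2rx2, and to a lesser degree Enpp1, Mex3c, Pld1 and Napepld. The Sup signal of P2rx2 was well above background on 0 of the 6 arrays. For Enpp1 and Mex3c it was so on 4, and for Pld1 and Napepld on 5.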
